A study of Homo sapiens with 4 samples.

Results

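Simple epithelial keratins are the intermediate filament proteins of single-layered and glandular epithelia. Stress keratins are family members that epithelia and their tumors take up under injury or malignancy. The genes examined here are *KRT8*, *KRT7*, *KRT80*, *KRT81* and *KRT86*, which encode type II (basic) keratins, and *KRT18*, *KRT19*, *KRT20*, *KRT17* and *KRT23*, which encode type I (acidic) keratins. They were taken by Ensembl identifier as protein-coding genes, without their pseudogenes, and number 10 of the 63677 genes in the count files. The set was chosen by family and role, but with the count difference between FLO-1LM and parental cells already known, so its values in that comparison are selected on the same counts and are given as a description without p-values. Of the 10 genes, 6 had enough counts to be tested among 17143 genes.

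RNAseq was performed on FLO-1 parental cells, an established human esophageal adenocarcinoma line, and on FLO-1LM, a subline of it (2 libraries each, 4 in all). FLO-1LM was grown from a liver macro-metastasis after repeated passage of FLO-1 in immunodeficient NSG mice, and was then kept in culture. RNA came from subconfluent cultures of both lines, and no treatment separates them. FLO-1LM is thus 1 derived line, and passage in mice, selection from a liver deposit and renewed culture cannot be told apart. Separate cultures for the libraries of a line are not stated, so the p-values measure the spread between these samples, which may be technical. No library batch or date is given, so batch and line cannot be told apart.

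Keratin filaments are obligate heteropolymers, in which 1 type I chain pairs with 1 type II chain. KRT8 and KRT18 are the first pair made in the embryo and the core pair of liver, gut and glandular cells, with KRT19 and KRT7 added in ducts and many adenocarcinomas. A keratin left without a partner is degraded, and the filaments are tied to desmosomes and hemidesmosomes by plakin proteins. Loss of these keratins with gain of vimentin is a classic sign of epithelial-mesenchymal transition.

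Total counts per library ran from 19060310 to 25920336, and TMM factors from 0.985 to 1.01. Levels below are CPM, each count scaled to its library's total after TMM adjustment, and 3 counts, the floor used here, came to 0.116 to 0.156 CPM. Within a line, libraries differed beyond sampling noise, with a chi-square over genes of 9.66 (FLO-1LM) and 4.59 (parental) per degree of freedom, compared with 11.3 to 14.3 between lines. In edgeR's quasi-likelihood test, 382 of 17143 genes (2.23%) had an adjusted p below 0.05, with 313 (1.83%) lower and 69 (0.402%) higher in FLO-1LM. The median log2 fold change of all tested genes was 0.0016. Mitochondrial genes took 9.96% and 9.57% of counts in FLO-1LM against 7.93% and 8.31% in parental cells. With mitochondrial genes left out, 4 member keratins were still called lower and 0 higher, and *KRT18* and *KRT19* were at −0.66 and −1.31 on the log2 scale.

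The type II keratin *KRT8* (ENSG00000170421, chromosome 12 of GRCh37, 53290971 to 53343738, reverse strand) had the most counts of the 10 genes. It had 6310 and 6766 counts in the FLO-1LM libraries and 9568 and 8684 in the parental libraries. On the CPM scale these were 283.0 and 262.6 against 433.6 and 452.5, or 273 ± 14.4 in FLO-1LM and 443 ± 13.3 in parental cells (SD, n = 2 each). Both FLO-1LM libraries lay well below both parental ones, and the gap was many times the spread within a line. The log2 fold change was −0.70 (SE 0.073), where SE is the standard error from the edgeR fit, and the level was 1.62 times as high in parental cells. In bulk RNA, fewer cells expressing a keratin and less keratin RNA in each cell cannot be told apart.

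Its type I partner *KRT18* (ENSG00000111057, chromosome 12, 53342655 to 53346690, forward strand) lies beside it and differed by nearly the same amount. It had 4068 and 4790 counts in FLO-1LM and 6495 and 5524 in parental cells. The level was 182 and 186 CPM against 294 and 288 CPM, with means of 184 ± 2.44 and 291 ± 4.62 (SD, n = 2 each). The lines did not overlap, and the log2 fold change was −0.66 (SE 0.072), or 1.58 times as high in parental cells. Exons of *KRT8* and *KRT18* lie opposite each other over 525 bases. The libraries are directional, but the strand setting of the counting is not given in the sources used here, so reads from that stretch may have been counted for either gene.

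The type I keratin *KRT19* (ENSG00000171345, chromosome 17, 39679869 to 39684560, reverse strand), the smallest keratin and a marker of ducts and of many carcinomas, had the largest relative difference among the members past the threshold. It had 294 and 324 counts in FLO-1LM and 665 and 650 in parental cells. In CPM these were 13.2 and 12.6 against 30.1 and 33.9, with means of 12.9 ± 0.43 and 32.0 ± 2.64 (SD, n = 2 each). The FLO-1LM libraries were close to each other and far below both parental ones, at a log2 fold change of −1.31 (SE 0.13) and a parental level 2.48 times as high.

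*KRT80* (ENSG00000167767, chromosome 12, 52562780 to 52585798, reverse strand) encodes a type II keratin found near desmosomes in many epithelia. Its counts were 502 and 593 in FLO-1LM and 752 and 669 in parental cells. The level was 22.5 and 23.0 CPM against 34.1 and 34.9 CPM, or 22.8 ± 0.35 and 34.5 ± 0.55 (SD, n = 2 each). Libraries of a line were nearly equal, and the lines stood apart at a log2 fold change of −0.60 (SE 0.11). *KRT80* no longer passed the threshold without either parental library, at −0.61 without the first and −0.58 without the second.

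*KRT7* (ENSG00000135480, chromosome 12, 52626304 to 52645970, forward strand), a type II keratin of ducts and a marker used to type adenocarcinomas, was the 1 tested member with a higher level in FLO-1LM. It had 142 and 156 counts in FLO-1LM and 68 and 94 in parental cells. The level was 6.37 and 6.05 CPM in FLO-1LM against 3.08 and 4.90 CPM in parental cells, with means of 6.21 ± 0.22 and 3.99 ± 1.28 (SD, n = 2 each). The lines did not overlap, but the parental libraries were far apart, and *KRT7* did not pass the threshold at a log2 fold change of 0.64 (SE 0.26). Its size rested on the parental libraries, at 0.34 without the first and 1.01 without the second. The antisense gene *KRT7-AS*, opposite *KRT7* over 282 exonic bases, had 1 count in 1 parental library and 0 in the other libraries. *KRT87P*, opposite it over 32 bases, had 0 in all 4.

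**Figure D1:**
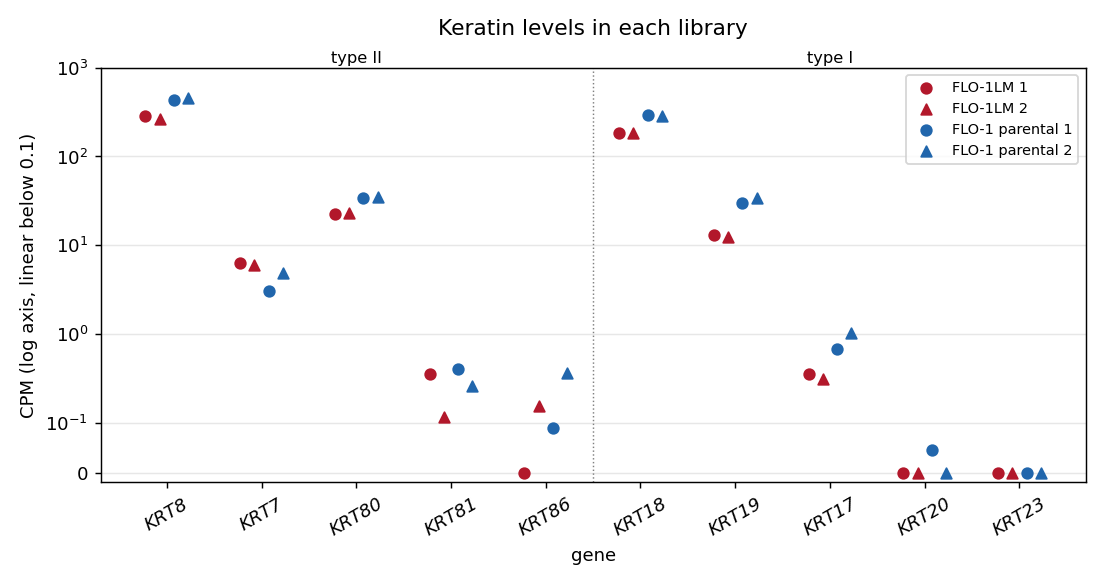
Level of the 10 keratin genes in each of the 4 libraries, in CPM on an axis that is logarithmic above 0.1 and linear below it, with type II keratins on the left and type I on the right; each symbol is 1 library. *KRT8*, *KRT80*, *KRT18*, *KRT19* and *KRT17* lie lower in both FLO-1LM libraries, *KRT7* lies higher, and *KRT81*, *KRT86*, *KRT20* and *KRT23* lie near or at 0.

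Among the stress and tumor-associated keratins, levels were close to the detection floor. *KRT17* (ENSG00000128422, chromosome 17, 39775694 to 39781094, reverse strand), a type I keratin induced in wounded and malignant epithelia, had 8 and 8 counts in FLO-1LM and 15 and 20 in parental cells. The level was 0.359 and 0.310 CPM against 0.680 and 1.04 CPM. The lines did not overlap, but *KRT17* did not pass the threshold, with a log2 fold change of −1.35 and an SE of 0.72.

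*KRT81* and *KRT86* encode type II hair keratins that some carcinomas also express. *KRT81* (ENSG00000205426, chromosome 12, 52679697 to 52685318, reverse strand) had 8 and 3 counts in FLO-1LM and 9 and 5 in parental cells. *KRT86* (ENSG00000170442, chromosome 12, 52643084 to 52702947, forward strand) had 0 and 4 counts against 2 and 7. The lines overlapped for both genes. Their transcripts share an identical run of 605 bases, and reads from that stretch could come from either gene. ENSG00000257829, which lies opposite *KRT86* over 32 exonic bases, had 1 and 26 counts in FLO-1LM and 26 and 6 in parental cells.

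*KRT20* (ENSG00000171431, chromosome 17, 39032141 to 39041494, reverse strand), the intestinal type I keratin, had a single count in the first parental library and 0 in the other libraries. *KRT23* (ENSG00000108244, chromosome 17, 39078952 to 39093898, reverse strand) had 0 counts in every library. Differences between the lines in these genes were not detectable at this depth, and *KRT81*, *KRT86*, *KRT20* and *KRT23* did not pass the low-count filter.

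Of the 6 tested keratins, 4 were lower past the threshold (the background was 1.83% of all tested genes) and 0 were higher (background 0.402%). The set was chosen with this difference known, so these counts are a description and not a test. The lines did not overlap for 5 lower keratins (21.7% of all tested genes were lower without overlap) and for 1 higher keratin (20.9%). The median log2 fold change of the 6 was −0.68.

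Divided by transcript length, which allows levels to be compared between genes, the order was the same in all 4 libraries down to *KRT17*. *KRT8* was highest, at 153 ± 8.09 CPM per kb in FLO-1LM and 248 ± 7.47 in parental cells (SD, n = 2 each). *KRT18* followed at 130 ± 1.73 and 206 ± 3.27 CPM per kb. After a wide gap came *KRT19* at 9.26 ± 0.311 and 23.0 ± 1.90 CPM per kb. *KRT80* had 5.88 ± 0.0913 and 8.90 ± 0.142 CPM per kb, *KRT7* had 3.82 ± 0.137 and 2.46 ± 0.790, and *KRT17* had 0.221 ± 0.0225 and 0.568 ± 0.169. Each of these neighbors was separated by more than its spread in both lines. *KRT8* and *KRT18* together made up 93.6% of the summed level per kb of the 10 genes in both FLO-1LM libraries, and 93.2% and 92.4% in the parental libraries.

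Because type I and type II chains pair, the balance of the 2 types was examined next. Summed over the 5 type I genes, the level was 196 and 199 CPM in FLO-1LM and 325 and 323 CPM in parental cells. Summed over the 5 type II genes, it was 312 and 292 CPM against 471 and 493 CPM. Both types were thus lower in both FLO-1LM libraries, by 0.72 ± 0.016 for type I and 0.67 ± 0.082 for type II on the log2 scale (± the SD of the difference, n = 2 each). The log2 ratios, FLO-1LM minus parental, were −0.72 and −0.67. The ratio of type I to type II, summed per kb, was 0.824 and 0.897 in FLO-1LM and 0.907 and 0.860 in parental cells. This ratio overlapped between the lines, with means of 0.860 ± 0.052 and 0.884 ± 0.033 (SD, n = 2 each), while both sums differed. With 2 libraries per line, an exact permutation test cannot give a p below 0.333, so none is given.

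**Figure D2:**
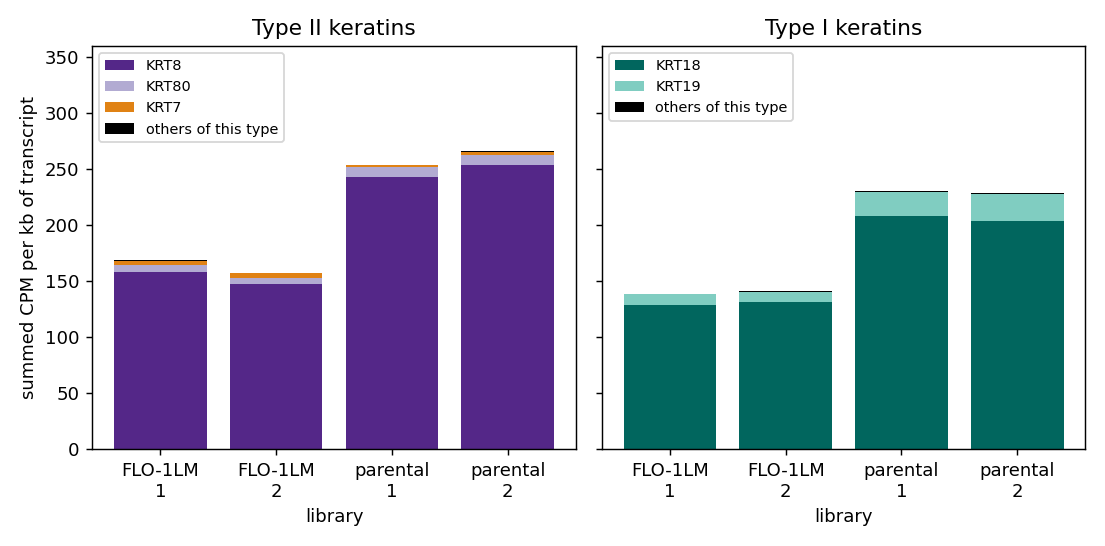
Summed level of type II (left) and type I (right) keratins in each library, in CPM per kb of transcript, with the part of each gene stacked in color. The bars are lower in both FLO-1LM libraries for both types, and *KRT8* and *KRT18* fill nearly all of each bar.

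Within each type, the make-up was compared between the lines. *KRT19* made up 6.83% and 6.42% of the type I level per kb in FLO-1LM and 9.41% and 10.7% in parental cells. *KRT7* made up 2.33% and 2.37% of the type II level per kb in FLO-1LM and 0.747% and 1.13% in parental cells. In both cases the libraries of the 2 lines did not overlap. Set against its core partner, *KRT19* stood at 7.35% and 6.88% of *KRT18* per kb in FLO-1LM and at 10.4% and 12.0% in parental cells, and *KRT7* stood at 2.47% and 2.53% of *KRT8* against 0.780% and 1.19%. The ratio of *KRT18* to *KRT8* per kb overlapped, at 0.814 and 0.894 in FLO-1LM and 0.857 and 0.803 in parental cells. These shares use the same counts by which the genes were chosen and are a description. *KRT7* itself did not pass the threshold, and its shares also reflect the lower *KRT8* level in FLO-1LM.

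*KRT8* and *KRT18* have many processed pseudogenes, intronless copies of their mRNAs elsewhere in the genome. Reads of near-identical copies can be moved from a gene to its copy by mapping and counting. The annotation lists 131 pseudogenes of *KRT8*, *KRT18*, *KRT19* and *KRT17* that are in the files, and 76 of them had a count. In windows of 50 bases along the *KRT8* transcript, 39.0% were identical to a stretch of at least 1 other annotated keratin transcript. The share was 35.3% for *KRT18*, 14.6% for *KRT17*, 44.6% for *KRT81* and 36.4% for *KRT86*. It was 1.79% for *KRT19*, 0.444% for *KRT7* and 0.418% for *KRT80*, and no such stretch was found for *KRT20* or *KRT23*. In windows of 75 bases the share was 18.8% for *KRT8*, 6.50% for *KRT18* and 0 for *KRT19*, *KRT7* and *KRT80*. The read length is not given in the sources used here.

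Of the 30 pseudogenes tested, 5 were lower and 0 higher past the threshold in edgeR's quasi-likelihood test. The background was 1.83% of all tested genes lower and 0.402% higher. Of the 30, 27 had a negative log2 fold change, and the median was −0.86. *KRT8P3* had 625 and 632 counts in FLO-1LM and 1052 and 1124 in parental cells, a log2 fold change of −1.02 (SE 0.12, Benjamini-Hochberg adjusted p = 4.79e-05, edgeR's quasi-likelihood test). *KRT8P36* had 131 and 138 counts against 349 and 255, at −1.38 (SE 0.19, adjusted p = 3.00e-04, edgeR). *KRT8P33* had 508 and 515 counts against 720 and 636, at −0.62 (SE 0.12, adjusted p = 0.00817, edgeR). *KRT8P45* fell by 0.91 and *KRT18P29* by 1.13 on the log2 scale (adjusted p = 0.0402 and 0.0436, edgeR), on 54 to 230 counts. *KRT18P11*, the *KRT18* copy with most counts, had −0.60 (SE 0.19, adjusted p = 0.140, edgeR). Most copies thus had a sign like that of their parent genes, and 16 were lower and 0 higher at an unadjusted p under 0.05 in edgeR. For that unadjusted cutoff, no share of all tested genes is given here. Summed over all copies, pseudogene counts came to 29.3% and 29.2% of the *KRT8* count in FLO-1LM and 30.7% and 31.5% in parental cells. For *KRT18* they came to 24.8% and 22.7% against 22.3% and 24.5%. With each parent and its copies added together, the log2 fold change was −0.72 (SE 0.072) for *KRT8* and −0.66 (SE 0.070) for *KRT18*. How many of the pseudogene reads came from the parent mRNAs was not tested. The p-values of the copies may therefore measure the parent genes again and are not separate support for their differences.

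**Figure D3:**
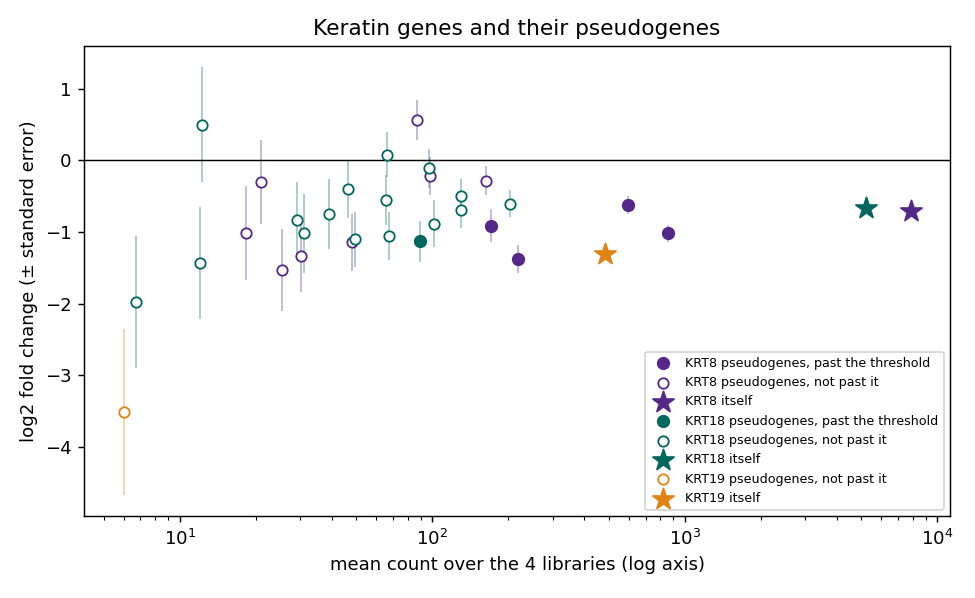
Log2 fold change, FLO-1LM against parental, of each tested pseudogene of *KRT8*, *KRT18* and *KRT19* and of the parent genes (stars), against the mean count over the 4 libraries on a log axis; bars are standard errors and filled circles passed the threshold. Of the 30 pseudogenes, 27 lie below 0, and the 5 that passed are 4 copies of *KRT8* and 1 of *KRT18*.

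Of the 45 other keratin genes listed, 25 had 0 counts in every library and 4 could be tested. In none of these 4 did edgeR's quasi-likelihood test reach the threshold. The FLO-1LM libraries were lower without overlap in all 4, and in 21.7% of all tested genes. At an unadjusted p under 0.05, 3 of the 4 were lower and 0 higher in edgeR. The share of all tested genes at that cutoff is not given here. DESeq2 and limma voom each called 0 of the 4 at the adjusted threshold. *KRT10*, the type I keratin of upper epidermis, had 289 and 421 counts in FLO-1LM and 417 and 367 in parental cells, a log2 fold change of −0.37 (SE 0.15, adjusted p = 0.311, edgeR). *KRT15*, a type I keratin of basal cells, had 131 and 114 counts against 183 and 166, at −0.72 (SE 0.22, adjusted p = 0.126, edgeR). *KRT16*, a stress keratin of wounded skin, had 12 and 21 counts against 39 and 44, at −1.57 (SE 0.53, adjusted p = 0.174, edgeR). The hair keratin *KRT32* had 13 and 16 against 32 and 17, at −0.96 (SE 0.61, adjusted p = 0.586, edgeR). The basal squamous pair *KRT5* and *KRT14* had at most 4 counts in any library.

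To place the keratins among other intermediate filaments, 15 such genes were listed, of which 10 could be tested. No gene of this list passed the threshold in edgeR's quasi-likelihood test, and the median log2 fold change was −0.093. At an unadjusted p under 0.05 in edgeR, for which no share of all tested genes is given here, 1 gene, *NEFH*, was lower and 0 were higher. Its log2 fold change was −0.25 (SE 0.075, adjusted p = 0.105, edgeR). DESeq2 and limma voom with TMM factors each called 0 of the list, while limma voom without TMM factors called 1 lower. *VIM*, encoding vimentin, the filament of mesenchymal cells, had 1760 and 1575 CPM in FLO-1LM and 1563 and 1597 CPM in parental cells. The lines overlapped, and the log2 fold change was 0.08 (SE 0.068, adjusted p = 0.732, edgeR). *LMNA*, encoding the nuclear lamins A and C, had −0.06 (adjusted p = 0.817, edgeR). Per kb, *VIM* exceeded *KRT8* and *KRT18* together in every library. The ratio of *KRT8* plus *KRT18* to *VIM* was 0.352 and 0.381 in FLO-1LM and 0.622 and 0.617 in parental cells, 1.69 times as high in parental cells. The lines stood apart in this ratio, while the *VIM* level itself overlapped between them.

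**Figure D4:**
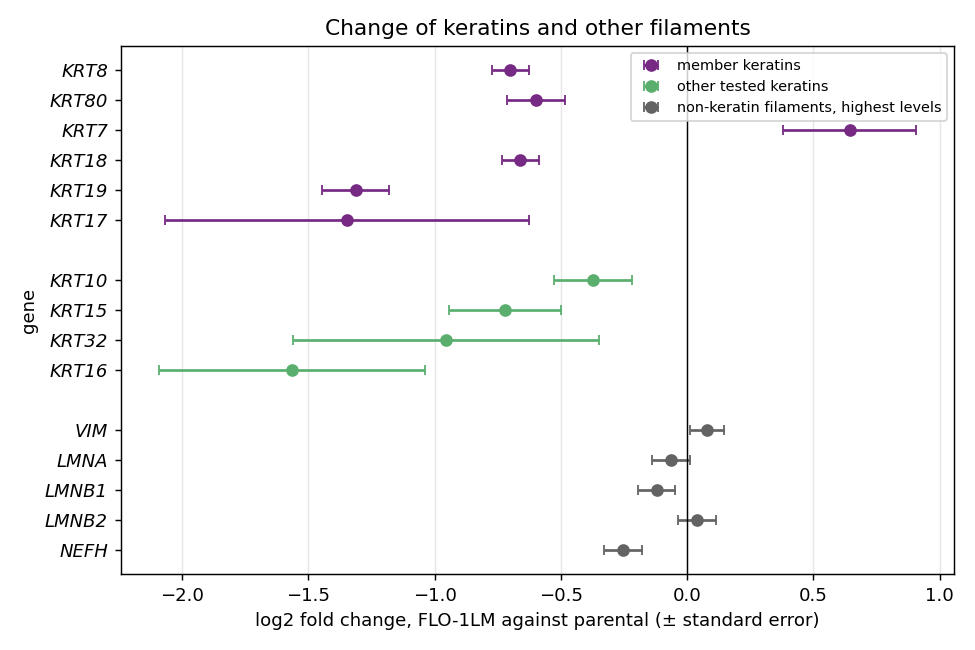
Log2 fold change, FLO-1LM against parental, with its standard error, for the 6 tested members, the 4 other tested keratins and the 5 non-keratin filament genes with the highest CPM; the line at 0 marks no difference. *KRT7* is at 0.64, the other keratins lie between −1.57 and −0.37, and *VIM* and *LMNA* lie at 0.08 and −0.06. *NEFH*, *LMNB1* and *LMNB2* lie at −0.25, −0.12 and 0.04.

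Genes that anchor, modify or regulate keratins, or mark epithelia, were listed next. Like the other lists, these were chosen with earlier results of these data known, so their p-values are not separate support. Counts past the adjusted threshold stand beside a background of 1.83% of all tested genes lower and 0.402% higher. At an unadjusted p under 0.05 in edgeR, 2 linkers, 1 partner, 3 regulators and 4 epithelial markers were lower, and 1 partner and 0 of the other lists were higher. That background does not apply to these unadjusted counts, and the share of all tested genes at this cutoff is not given here. DESeq2 and limma voom, like edgeR, called 0 of the listed genes higher at the adjusted threshold. *ELF3* was on both the regulator and the epithelial list and counts as lower in each. Its log2 fold change was −0.83 (SE 0.26, adjusted p = 0.142, edgeR). Of 14 linker genes, 11 could be tested, 1 was lower and 0 higher, with a median log2 fold change of −0.0056. *PPL*, encoding periplakin, a plakin that joins keratin filaments to the desmosomal plaque, had 91.1 and 93.6 CPM in FLO-1LM and 124 and 113 in parental cells. It fell by 0.36 on the log2 scale (SE 0.082, adjusted p = 0.0239, edgeR). The most abundant linkers did not pass the threshold, with 0.07 for *PLEC* (plectin, adjusted p = 0.810, edgeR) and −0.16 for *DSP* (desmoplakin, adjusted p = 0.427, edgeR). Among 10 chaperones, kinases and other keratin partners, all tested, 1 was lower and 0 higher, with a median of 0.021. *TGM2*, encoding the transglutaminase that cross-links keratin 8 in Mallory-Denk bodies, had 44.5 and 45.5 CPM against 57.2 and 58.6 CPM, a log2 fold change of −0.36 (SE 0.093, adjusted p = 0.0484, edgeR), and missed the threshold with DESeq2 and with limma voom on TMM factors. The values were 0.01 for *SQSTM1* (p62, which gathers with keratins in those bodies, adjusted p = 0.964, edgeR) and 0.16 for *HSPB1* (a small heat shock protein that binds keratin filaments, adjusted p = 0.501, edgeR). Without either parental library, 0 genes of both lists were lower past the threshold.

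Of 13 transcription factor genes listed as regulators of keratin genes, 11 could be tested, with 1 lower, 0 higher and a median log2 fold change of −0.051. *KLF4*, encoding a Krüppel-like factor of differentiating epithelia, had 37.2 and 32.2 CPM in FLO-1LM and 51.3 and 49.1 in parental cells. It fell by 0.54 on the log2 scale (SE 0.10, adjusted p = 0.0085, edgeR). The most abundant of the list were *SP1*, at −0.05 (adjusted p = 0.873, edgeR), and *JUNB*, an AP-1 subunit, at 0.07 (adjusted p = 0.812, edgeR). The count of lower regulators was 0 without either parental library.

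Markers of epithelial identity were checked beside the keratins. This list was also chosen with earlier results of these data known, so its values are not separate support for the keratin differences. Of 9 epithelial markers, 6 could be tested, 2 were lower and 0 higher in FLO-1LM, the median log2 fold change was −0.64, and the summed level was 56.6 and 61.0 CPM against 149 and 138 CPM. *CDH1*, encoding E-cadherin, fell by 2.21 (SE 0.11, adjusted p = 1.14e-09, edgeR) and *CLDN4*, encoding the tight junction protein claudin 4, by 1.07 (SE 0.18, adjusted p = 0.00175, edgeR) on the log2 scale, and *CDH1* made up most of the difference in the sum. Without the first parental library, 1 gene of the list was lower past the threshold. *MUC1*, encoding a cell surface mucin, had 20.3 and 19.4 CPM in FLO-1LM and 28.2 and 25.6 in parental cells, a value of −0.44 that missed the threshold (adjusted p = 0.0879, edgeR). *ESRP2*, encoding an epithelial splicing factor, was at −0.09 with overlapping lines (adjusted p = 0.930, edgeR), and *CLDN7*, encoding claudin 7, was at 0.48 (adjusted p = 0.833, edgeR). *EPCAM*, a defining marker of adenocarcinoma cells, was near the floor in both lines, with 3 and 12 counts in FLO-1LM and 4 and 3 in parental cells.

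Markers of other cell types were checked as well, and their part in the keratin values was not tested. Reads were mapped to the human genome alone, so these human genes cannot show whether mouse cells of the host were present. None of 8 squamous markers had enough counts to be tested, and their sum was 0.493 and 0.970 CPM in FLO-1LM and 2.27 and 0.208 in parental cells. Except in the second parental library, most of it came from the esophageal squamous keratins *KRT4*, with 5 and 7 counts against 21 and 0, and *KRT13*, with 3 and 10 against 17 and 1, so the parental libraries were far apart. Of 6 fibroblast markers, 2 were at 0 in every library, 1 was tested and did not pass the threshold, and the sum was 13.0 and 11.1 CPM against 12.8 and 10.004. *COL1A1*, encoding a chain of type I collagen, made up nearly all of this sum, with 284 and 272 counts in FLO-1LM and 275 and 186 in parental cells, and overlapped between the lines at a log2 fold change of 0.07 (adjusted p = 0.935, edgeR). *LUM*, encoding lumican, had 3 to 6 counts. Of 6 leukocyte markers, 2 were tested and not called, *PTPRC* (CD45) was at 0 in every library, and the sum was 2.15 and 1.28 CPM against 2.67 and 1.67. *LAPTM5* had 29 and 9 counts in FLO-1LM and 47 and 22 in parental cells. Of 6 hepatocyte markers, 4 including *ALB* were at 0 in every library, and the sum ran from 0.045 to 0.272 CPM. *APOA1* had 1 to 7 counts, and *TAT* had 2 counts in 1 parental library.

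Genes with a profile most like that of *KRT8* and *KRT19* over the 4 libraries were sought by Euclidean distance among 7908 protein-coding genes with a mean of at least 20 CPM, on centered log2 CPM with 0.5 added. For *KRT8* the nearest were *SLCO3A1* (distance 0.104), *APOL1* (0.117), *KRT18* (0.123), *CYP26B1* (0.145) and *KRT80* (0.150). For *KRT19* they were *RIPOR3* (0.199), *MEOX1* (0.224), *CX3CL1* (0.388), *MRNIP* (0.474) and *RSAD2* (0.474). *APOL1*, encoding an apolipoprotein, had 177 and 175 CPM in FLO-1LM against 284 and 272 in parental cells, and *MEOX1*, encoding a homeobox factor, had 23.5 and 24.8 against 56.0 and 53.4. Of the keratins, only *KRT8*, *KRT18*, *KRT19* and *KRT80* reached the mean of 20 CPM, all of them members chosen with this difference known. Among these 7908 genes, 2 keratins were thus within the 5 genes nearest to *KRT8*, and the genes near *KRT19* included no keratin. The nearness of *KRT18* and *KRT80* to *KRT8* restates differences already given above. The distance rests on only 4 libraries of 2 lines, and nothing of shared function or control is read from it.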

How the data were processed

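Total RNA of 2 FLO-1LM and 2 FLO-1 parental samples was sequenced from directional libraries. The authors called bases with bcl2fastq 2.17, trimmed adapters with Trimmomatic 0.30, mapped the reads to GRCh37 with an unnamed short read aligner and deposited raw counts per Ensembl gene. The counting program, its strand setting and its treatment of reads with several matches, all of which bear on keratins with near-identical copies, are not given in the sources used here.

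Starting from these counts, genes were kept by filterByExpr at its defaults (minimum count 10, minimum total 15), leaving 17143 of 63677. Lines were compared in R 4.3.3 with edgeR 4.0.16 (TMM factors, glmQLFit, glmQLFTest) over all tested genes, with Benjamini-Hochberg adjustment and a threshold of 0.05. Adjusted p-values in the text come from this edgeR fit. Standard errors are the absolute log2 fold change over the square root of F. Total counts of 19060310 to 25920336 per library set the precision. The standard errors include the spread between libraries as edgeR fitted it, and the floor of 3 counts does not enter them. Levels per kb use the length of the canonical transcript. Gene positions, pseudogenes and transcripts come from GENCODE v44 lifted to GRCh37, later than the annotation the authors counted on. Stretches shared between transcripts were counted in Python 3.11.15. Sequences of the keratin genes and some marker genes are not reported here. The scripts were tested on simulated data.

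The keratin genes and all lists were chosen with earlier results of these data known, so p-values of listed genes are not separate support. Lists were other keratins, other intermediate filaments, linkers, partners, regulators, and epithelial, squamous, fibroblast, leukocyte and hepatocyte markers. Named were all 10 keratin genes, the other keratins that passed the filter, the called genes (at most 5) and the 2 most abundant of each other list, the called pseudogenes and the 3 with most counts, overlapping genes, and the 5 genes nearest to *KRT8* and to *KRT19*. Other genes (*KRT5*, *KRT14*, *EPCAM*, *ESRP2*, *CLDN7*, *ELF3*, *NEFH*, *LMNB1*, *LMNB2*, *PTPRC* and *ALB*) were named after their values were seen, as were those in the closing section.

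Alternatives were RLE factors, library totals only, DESeq2 1.42.0, limma 3.58.1 voom with and without TMM factors, no low-count filter, at least 10 counts in every library, mitochondrial genes left out, pseudogene counts added to their parents, and each library left out in turn.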

Additional observations from a re-analysis of the deposited data

How the results depend on the processing

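No member keratin changed direction in any alternative. *KRT8*, *KRT18* and *KRT19* stayed past the threshold in 13 of 13, at −0.76 to −0.65, −0.69 to −0.64 and −1.39 to −1.23 (log2 fold changes), *KRT80* in 11 of 13 (−0.63 to −0.58), and *KRT7* and *KRT17* passed it in none. The type I sum had −0.75 in place of −0.72 with library totals only and with limma voom without TMM factors.

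Genes lower in FLO-1LM numbered 203 with at least 10 counts in every library, and genes higher numbered 147 with no low-count filter. With a library left out they ran from 96 to 696 and from 20 to 356. These fits take their spread from the 1 pair left whole and assume that the lone library varies like that pair. Counts were higher without either FLO-1LM library and lower without either parental one. Over these fits, lower pseudogenes ran from 2 to 10, other keratins from 0 to 2, other intermediate filaments from 0 to 1, linkers from 0 to 1, partners from 0 to 1, regulators from 0 to 2 and epithelial markers from 1 to 4, while higher partners ran from 0 to 1. DESeq2 gave 3 lower pseudogenes and 0 lower partners, and limma voom with TMM factors also gave 0 lower partners. Lower filaments other than keratins numbered 1 with limma voom without TMM factors and with no low-count filter. The causes were not tested. Of these summary values under the alternatives, 234 were within preset limits of the main value, 34 moved and 0 reversed. Most of the values are counts of genes, which could only stay or move. The ratio of type I to type II, smaller than its spread, could not be labeled reversed either. The 0 reversed therefore bears only on the type I and type II sums. No paired analysis was possible because the labels give no replicate numbers shared by the lines.

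Depth limits the genes near the floor of 3 counts: *KRT81*, *KRT86*, *KRT20* and *KRT23* could not be compared, and *KRT17* had a standard error of 0.72.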

Other observations

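Among the tested pseudogenes, *KRT8P12*, a transcribed copy of *KRT8* on chromosome 3 (160283235 to 160287036, forward strand), had more counts in FLO-1LM, with 109 and 112 against 64 and 64 in the parental libraries. Its log2 fold change was 0.57 (SE 0.28), and it did not pass the threshold (adjusted p = 0.421, edgeR's quasi-likelihood test). *KRT19P1*, the 1 tested copy of *KRT19*, had 0 and 2 counts in FLO-1LM and 13 and 9 in the parental libraries, which also missed the threshold (adjusted p = 0.160, edgeR).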
